A study of Mus musculus with 6 samples.

Results

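Glutathione S-transferase transcripts were examined in livers of 3 laboratory and 3 wild house mice. The set held 10 genes chosen by name, with earlier results of these data known. They were 3 of the alpha class (Gsta2, Gsta3, Gsta4), 3 of the mu class (Gstm1, Gstm2, Gstm3), 2 of the pi class (Gstp1, Gstp2) and 2 of the theta class (Gstt1, Gstt3). They were read from tables with 47256 gene names listed once for every mouse, besides names listed at more than 1 place, among them Gstp1 and Gstp2. The laboratory mice were C57BL/6, all male and adult, bought from a breeder. The wild mice were outbred adults live-trapped at 2 places in New South Wales and then held under standard husbandry, wild mouse 1 a male and wild mice 2 and 3 females. None of the RNA samples came from fixed tissue, and each liver was sequenced once as a polyA RNA library. The groups differed in strain, sex make-up, origin, housing history, body weight and time of preparation, which cannot be told apart. The exact age of the wild mice was not given. P-values concern these 6 mice only. Those of the limma fits take their spread mostly from genes of similar level, not from each gene alone. The values are FPKM, that is reads scaled by transcript length and by the mapped reads of the library, and zFPKM, a score that counts how many SDs a gene's log2 FPKM lies above the peak of log2 FPKM in the same mouse. The number of reads behind each value was not given in the tables.

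Glutathione S-transferases join the thiol of glutathione to electrophilic compounds, which makes drugs, toxins and products of lipid oxidation soluble and fit for export. Cytosolic forms are grouped into classes by sequence, and enzymes of the alpha, mu and pi classes are among the most abundant soluble proteins of rodent liver. In mice, pi class expression in liver is known to be higher in males than in females, and several alpha and mu class genes respond to the factor NRF2 through antioxidant response elements.

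The start regions of 4 members are shown because these genes held the highest and lowest differences between the groups and the main alpha class transcript. Each is the stretch of 250 bases before the RefSeq gene start on GRCm38.p6, read along the gene's strand. Gstp1 is the window chr19:4037913-4038162 and Gstp2 the window chr19:4042222-4042471, both on the minus strand. Gsta3 is the window chr1:21240335-21240584 on the plus strand, and Gstt3 is the window chr10:75781423-75781672 on the minus strand. Capitals mark the AP-1 site TGACTCA, here read as its reverse complement TGAGTCA, in the pi class genes, and the antioxidant response element core TGACNNNGC in Gsta3. No base of Gstt3 is in capitals.
Gstp1: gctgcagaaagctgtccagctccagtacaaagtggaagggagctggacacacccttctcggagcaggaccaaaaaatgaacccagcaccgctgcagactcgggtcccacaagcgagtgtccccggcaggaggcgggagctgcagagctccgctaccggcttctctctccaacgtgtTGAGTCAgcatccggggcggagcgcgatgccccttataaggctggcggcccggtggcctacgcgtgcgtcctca
Gstp2: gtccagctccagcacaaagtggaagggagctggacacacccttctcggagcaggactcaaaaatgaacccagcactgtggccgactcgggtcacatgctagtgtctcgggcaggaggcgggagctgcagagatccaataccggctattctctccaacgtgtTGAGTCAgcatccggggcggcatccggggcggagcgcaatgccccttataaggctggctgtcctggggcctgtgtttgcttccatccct
Gsta3: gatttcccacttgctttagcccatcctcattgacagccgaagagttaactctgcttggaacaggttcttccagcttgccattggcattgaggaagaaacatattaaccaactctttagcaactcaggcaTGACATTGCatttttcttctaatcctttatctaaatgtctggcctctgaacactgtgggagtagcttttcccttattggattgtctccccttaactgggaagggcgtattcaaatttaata
Gstt3: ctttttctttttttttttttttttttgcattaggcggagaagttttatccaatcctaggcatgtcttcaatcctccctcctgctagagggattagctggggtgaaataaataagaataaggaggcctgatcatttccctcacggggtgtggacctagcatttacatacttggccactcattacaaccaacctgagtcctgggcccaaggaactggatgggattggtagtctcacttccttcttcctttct

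RefSeq windows were found for 9 of the 10 members, in 11 windows. The AP-1 site, searched on both strands, lay in the windows of Gstp1 and Gstp2 only among the members, and in 4.46% of all 32851 windows of this length. It ended 68 bases before the start of Gstp1 and 83 bases before the start of Gstp2. The windows of Gstp1 and Gstp2 were identical at 208 of 265 aligned columns (78.5%). Just downstream of the AP-1 site, the GC box GGGCGG occurred once in Gstp1 and at 2 places in Gstp2; it was also present in Gstm3, and in 32.7% of all windows. The core TGACNNNGC was found in Gsta3 alone among the members, 121 bases before the start, and in 10.2% of all windows. These matches describe letters of the C57BL/6J reference and were not measured in the wild mice.

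All 10 members were detected in every mouse and passed the filter on low values. In laboratory liver the mean FPKM ran from 1945 for Gstm1 (SD 224, n = 3), the gene ranked 36 among all genes, down to 5.90 for Gstt3 (SD 1.91), ranked 4224. The order was Gstm1, Gstp1, Gstp2, Gstt1, Gsta3, Gstm3, Gstm2, Gsta4, Gsta2 and Gstt3. Neighbours whose ranges did not overlap were Gstp2 and Gstt1, Gsta3 and Gstm3, and Gsta2 and Gstt3; all other neighbours overlapped. In wild liver the order was Gstm1, Gsta3, Gstp1, Gstm3, Gstm2, Gstt1, Gstp2, Gstt3, Gsta4 and Gsta2. There Gstm1 stood apart from Gsta3, Gsta3 from Gstp1 and Gstt3 from Gsta4, and the other neighbours overlapped. Wild means ran from 2455 FPKM for Gstm1 (SD 347, n = 3) to 124 FPKM for Gsta2 (SD 13.1), so the lowest and highest members lay closer together than in laboratory liver.

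**Figure D1:**
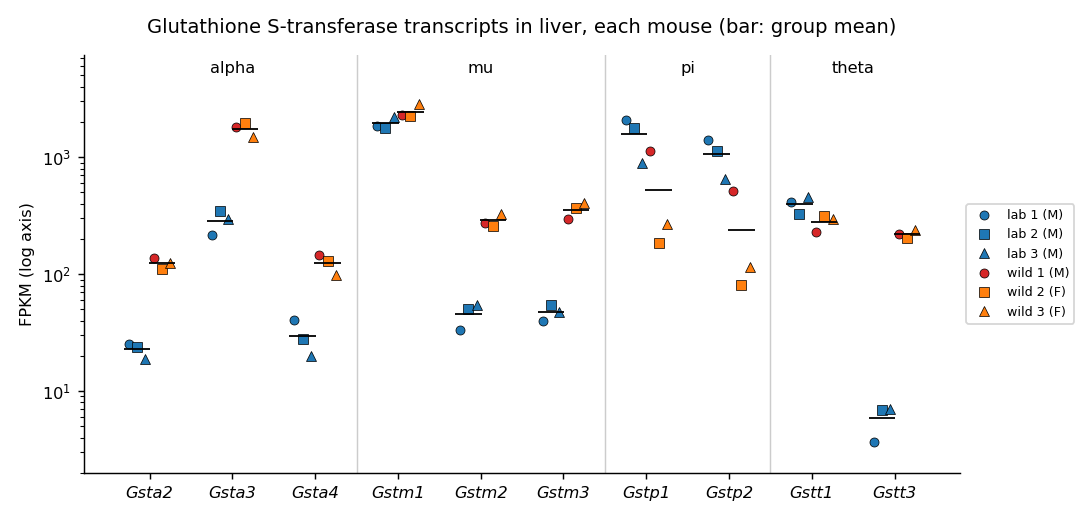
FPKM on a log axis for the 10 genes, with 1 point per mouse (blue, laboratory males; red, the wild male; orange, wild females) and a bar at each group mean. Gstt3 lies between 3.69 and 7.05 FPKM in laboratory males and between 205 and 237 FPKM in wild mice, while Gstm1 is high in both groups.

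The main comparison asked how expression in laboratory mice differed from that in wild mice. In zFPKM, 9 of the 10 members passed the test (limma, adjusted p under 0.05), against 14.5% of the 18625 genes tested. Gsta2, Gsta3, Gsta4, Gstm2, Gstm3 and Gstt3 were lower in laboratory mice, 6 of 10 against 7.29% of all genes, and Gstp1, Gstp2 and Gstt1 were higher, 3 of 10 against 7.18%. The median difference of the members (laboratory minus wild) was -0.55 in zFPKM, and that of all tested genes was 0.00489. In FPKM, every wild mouse exceeded every laboratory mouse for 7 members, where this held for 43.7% of all genes, and every laboratory mouse exceeded every wild mouse for 2 members, against 12.1%. In zFPKM the groups did not overlap for 9 members, against 28.3% of all genes. Fewer cells of a type and less RNA per cell cannot be told apart in these bulk samples. The calls rested on the fit: with 1 variance prior for all levels of expression only Gstt3 passed, and without a filter on low values no member did (limma). At an unadjusted p under 0.05 were 8 members in either case, beside 3953 of 18625 genes in the first and 3224 of 47238 genes in the second.

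FPKM and zFPKM differ in scale. On log2(FPKM + 0.1) the median tested gene differed by -0.47 (laboratory minus wild), and 1526 genes were higher and 7070 lower, against 1337 higher and 1358 lower in zFPKM. The log2 FPKM at which zFPKM is 0 ranged from 0.491 to 2.12 in laboratory and from 1.31 to 2.51 in wild mice, and 1 unit of zFPKM stood for 2.51 to 3.12 log2 units. Among the members, 2 were higher and 6 lower on log2(FPKM + 0.1). On log2(FPKM + 1) it was 1 higher and 6 lower, against 1385 and 6861 of the 18625 tested genes. With the zFPKM of every mouse centred on a median of 0, it was 1 higher and 5 lower, against 2681 and 2596 genes. With log2(FPKM + 0.1) centred in that way, 3 members were higher and 6 lower, against 5335 and 3468 genes.

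Markers of cell types were read beside these results, where 7.18% of all genes were called higher and 7.29% lower in laboratory mice. Hepatocyte markers were high in every mouse, with 10 genes that summed to 57714 to 73824 FPKM in laboratory and 42486 to 46486 FPKM in wild mice, of which 3 were called higher and 4 lower in laboratory mice. The 6 acinar pancreas genes summed to at most 1.86 FPKM in any mouse, with Cela3b and Prss2 at 0 throughout. Pericentral hepatocyte markers differed between the groups in the same direction as Gsta2, Gsta3, Gsta4, Gstm2, Gstm3 and Gstt3, while Gstm1 was not called. Of these 8 markers 6 were called lower in laboratory mice and 0 higher, and their summed level was 576 to 1016 FPKM in laboratory and 4721 to 5246 FPKM in wild mice. Of 7 periportal markers, 1 was lower and 0 were higher, with sums of 1841 to 2496 and 4719 to 5757 FPKM. Like Gstp1, Gstp2 and Gstt1, 5 of 6 erythrocyte markers were called higher in laboratory mice, with sums of 1339.7 to 5135 against 724 to 1581 FPKM. For 3 of the 6, every laboratory mouse exceeded every wild mouse in FPKM, where this held for 12.1% of all genes. In wild females against the wild male, the median zFPKM difference of these markers was 0.35, with 0.38 for all genes. Gstp1 and Gstp2 gave -0.75 and -0.73 there. Of 6 biliary markers 1 was higher, with sums of 29.7 to 64.6 and 12.2 to 27.6 FPKM. Of 6 Kupffer cell and 6 sinusoidal endothelial markers 0 were called in either direction (limma), and of 6 stellate cell and 6 lymphocyte markers 2 and 1 were higher. The part of these cell types in the results was not tested.

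Alpha class transcripts were low in laboratory and high in wild liver. Gsta3, on chromosome 1 (21240565 to 21265575), encodes an alpha class enzyme known for conjugating activated aflatoxin in mouse liver. Its FPKM was 216, 345 and 293 in laboratory males and 1804, 1976 and 1481 in wild mice 1 to 3. The lowest wild mouse was 4.29-fold above the highest laboratory mouse, and the group means differed 6.15-fold. The zFPKM difference was -0.65 (SE 0.10, limma adjusted p = 2.09e-09). It was still called with any 1 mouse left out, but not once the zFPKM of every mouse was centred on a median of 0 (limma adjusted p = 0.141). With log2(FPKM + 0.1) centred in that way it was called (limma adjusted p = 0.00241).

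Gsta2, on chromosome 9 (78331018 to 78347192), encodes another alpha class enzyme, inducible by antioxidants. It was at 25.3, 23.9 and 19.0 FPKM in laboratory males and at 137, 111 and 124 FPKM in wild mice. All 3 wild mice were above all laboratory mice, by 5.45-fold in the means. The zFPKM difference was -0.61 (SE 0.13, limma adjusted p = 1.67e-04). This call was lost with sex as a covariate, which sets the laboratory males against the 1 wild male (difference -0.56). Of the 100-base windows of its transcripts, 28.4% also occur in Gsta1, Gm10639 or Gm3776, so reads could be split between these genes. The sum of Gsta1 and Gsta2 was 26.9 FPKM (SD 3.45) in laboratory and 171 FPKM (SD 14.4) in wild mice (n = 3 each), again with no overlap.

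Gsta4, also on chromosome 9 (78191966 to 78209349), encodes the enzyme best known for conjugating the lipid oxidation product hydroxynonenal. Its FPKM was 40.3, 27.99 and 20.1 in laboratory males and 147, 128 and 98.0 in wild mice. The groups did not overlap and the means differed 4.22-fold. The zFPKM difference was -0.50 (SE 0.13, limma adjusted p = 0.00269). This call was lost without laboratory mouse 3, wild mouse 1 or wild mouse 2 (limma adjusted p up to 0.0711). It was also lost with sex as a covariate, again with the 1 wild male (difference -0.49). None of the 100-base windows of Gsta4 is shared with another gene.

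Mu class genes lie side by side on chromosome 3, and only Gstm2 and Gstm3 of the 3 members were called. Gstm1 (108012250 to 108017979), the leading mu class enzyme of mouse liver, was at 1849, 1784 and 2201 FPKM in laboratory males and at 2281, 2229.95 and 2854 FPKM in wild mice. The lowest wild mouse exceeded the highest laboratory mouse by only 1.01-fold. The zFPKM difference was 0.16 (SE 0.088, limma adjusted p = 0.25), positive in zFPKM but negative on log2(FPKM + 0.1) at -0.33, on log2(FPKM + 1), on a common mode and SD and after quantile normalization. Relative to the median tested gene the log2(FPKM + 0.1) difference was 0.14, and Gstm1 passed under none of the alternatives run.

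Gstm2 (107981702 to 107986420), a second mu class enzyme, had 33.4, 50.3 and 54.1 FPKM in laboratory males and 275, 260.5 and 327 FPKM in wild mice. Gstm3 (107963696 to 107969174), another enzyme of the class, had 39.5, 54.9 and 47.1 FPKM in laboratory males and 298, 367 and 404 FPKM in wild mice. The groups were far apart for both genes, with means that differed 6.26-fold for Gstm2 and 7.56-fold for Gstm3. The zFPKM differences were -0.67 for Gstm2 (SE 0.12, limma adjusted p = 1.41e-06) and -0.76 for Gstm3 (SE 0.12, adjusted p = 1.30e-08). Gstm1 exceeded Gstm2 by 43.9-fold (SD 10.3) within laboratory mice and by 8.53-fold (SD 0.217) within wild mice, a ratio that no scaling between mice can change. The 2 groups did not overlap in this ratio (exact permutation test, two-sided, p = 0.1, which is the lowest possible with 3 mice against 3).

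Gstp1 and Gstp2 were higher in laboratory than in wild liver. They are neighbours on chromosome 19 (4035411 to 4037912 and 4040288 to 4042221) and encode near-identical enzymes, of which Gstp1 is the main pi class form of mouse liver. Gstp1 was at 2061, 1777 and 896 FPKM in laboratory males, 1127 FPKM in wild mouse 1 (male), and 184 and 269 FPKM in wild mice 2 and 3 (female). In FPKM laboratory mouse 3 fell below the wild male, so the groups overlapped, while in zFPKM they did not. Gstp2 was at 1409, 1124 and 647 FPKM in laboratory males, 515 FPKM in wild mouse 1 (male), and 81.0 and 115 FPKM in wild mice 2 and 3 (female). All laboratory mice were above all wild mice for Gstp2, and the means differed 4.47-fold. The zFPKM differences were 0.91 for Gstp1 (SE 0.096, limma adjusted p = 1.97e-18) and 1.12 for Gstp2 (SE 0.10, adjusted p = 4.40e-25). These SEs come mostly from genes of similar level. The SD of zFPKM was 0.16 in laboratory and 0.44 in wild mice for Gstp1, and 0.16 and 0.43 for Gstp2. An exact permutation test of FPKM gave p = 0.2 for Gstp1 and p = 0.1 for Gstp2. With sex as a covariate, which sets the laboratory males against the 1 wild male, Gstp2 was still called and Gstp1 was not. The differences there were 0.63 for Gstp2 and 0.41 for Gstp1. Gstp1 was also not called on log2(FPKM + 1) (limma adjusted p = 0.0589) or with the lowest floor tried (0.0652). Nor was it called once the zFPKM of every mouse was centred on a median of 0 (limma adjusted p = 0.095). With log2(FPKM + 0.1) centred in that way it was called (limma adjusted p = 0.0196).

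The pi class genes cannot be fully separated by their reads, since 25.1% of the 100-base windows of Gstp1 and 46.9% of those of Gstp2 occur in another gene, mostly in each other. Both genes are listed on chromosome 19 in every mouse and, except in laboratory mouse 1, again on an alternate scaffold of the assembly with the same FPKM. The ratio of Gstp2 to Gstp1 was 0.684, 0.632 and 0.722 in laboratory males and 0.457, 0.441 and 0.427 in wild mice. It varied little within each group and did not overlap between them (exact permutation test, p = 0.1). Gstp3, the third gene of the cluster, which shares no 100-base window with another gene, had 11.2, 15.05 and 21.5 FPKM in laboratory males, 384 FPKM in wild mouse 1 (male), and 27.3 and 47.2 FPKM in wild mice 2 and 3 (female). It was taken from its entry on the alternate scaffold, the one that all 6 mice list. Unlike Gstp1 and Gstp2, Gstp3 was lower in laboratory mice, with a zFPKM difference of -0.59 (SE 0.14, limma adjusted p = 7.14e-04). Its zFPKM was 2.26 in the wild male, 1.11 and 1.31 in the wild females, and 0.92 to 1.02 in laboratory males. The SD of zFPKM was 0.61 in wild mice, and an exact permutation test of FPKM gave p = 0.1.

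Gstt3 held the largest difference of the 10 genes. Gstt3 and Gstt1, neighbours on chromosome 10 (75774117 to 75781422 and 75783813 to 75798584), encode theta class enzymes, of which Gstt1 is known for acting on small halogenated compounds. Gstt3 was at 3.69, 6.96 and 7.05 FPKM in laboratory males and at 218, 205 and 237 FPKM in wild mice. The lowest wild mouse was 29.1-fold above the highest laboratory mouse, and the means differed 37.3-fold. The zFPKM difference was -1.58 (SE 0.14, limma adjusted p = 4.08e-25), and on log2(FPKM + 0.1) it was -5.25, or -4.79 relative to the median tested gene. Of the 100-base windows of Gstt3, 10.8% are shared, with the annotated gene Gm20441.

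Gstt1 was at 415, 324 and 453 FPKM in laboratory males and at 231, 317 and 295 FPKM in wild mice. The groups just failed to touch, at 324 and 317 FPKM. The zFPKM difference was 0.44 (SE 0.11, limma adjusted p = 5.46e-04). The gene was not called on log2(FPKM + 0.1) (limma adjusted p = 0.0746), on log2(FPKM + 1), on a common mode and SD or with the lowest floor tried. Nor was it called once the zFPKM of every mouse was centred on a median of 0 (limma adjusted p = 0.149). With log2(FPKM + 0.1) centred in that way it was called (limma adjusted p = 0.00643). The ratio of Gstt3 to Gstt1 within a mouse was 0.0089, 0.0215 and 0.0156 in laboratory males and 0.945, 0.646 and 0.805 in wild mice. Adjacent genes that were far apart in laboratory liver were thus close to even in wild liver (exact permutation test, p = 0.1).

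**Figure D2:**
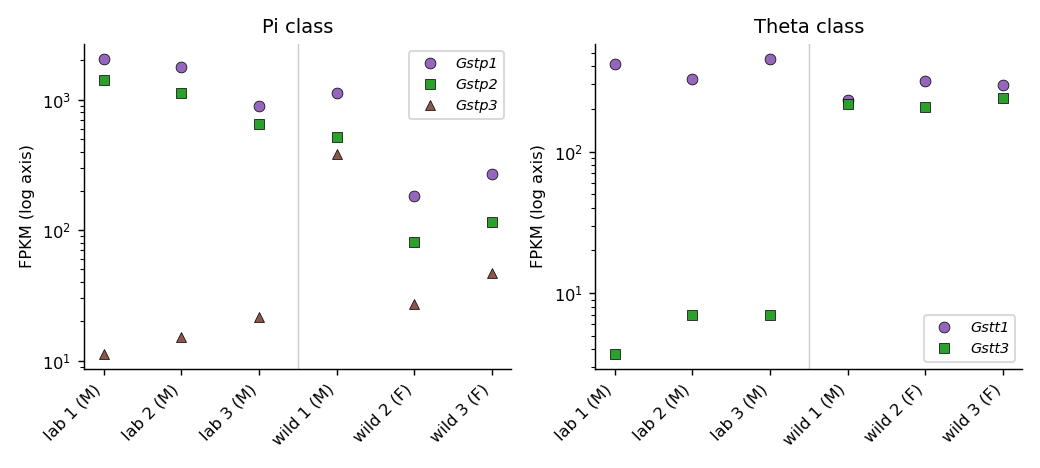
FPKM on a log axis for each mouse, with the pi class genes Gstp1, Gstp2 and Gstp3 in the left panel and the theta class genes Gstt1 and Gstt3 in the right panel. Wild mouse 1, the male, lies above both wild females for all 3 pi class genes, and Gstt3 comes close to Gstt1 only in wild mice.

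The share of each class in the summed FPKM of the 10 genes does not depend on scaling between mice. Alpha class genes held 4.63%, 7.19% and 7.17% in laboratory males and 29.7%, 37.8% and 27.4% in wild mice. Pi class genes held 56.96%, 52.6% and 33.3% in laboratory males, 23.3% in wild mouse 1 (male), and 4.52% and 6.19% in wild mice 2 and 3 (female). Laboratory liver thus held mostly pi and mu class transcripts and wild liver mostly mu and alpha class transcripts. The mean shares were 6.33% (SD 1.47) against 31.6% (SD 5.45) for alpha and 47.6% (SD 12.6) against 11.4% (SD 10.4) for pi (n = 3 each, exact permutation p = 0.1 for both). Mu class shares overlapped, at 38.5% (SD 9.76) and 49.0% (SD 8.60; exact permutation p = 0.3, n = 3), as did theta class shares. The summed FPKM of all 10 genes overlapped too, at 5416 (SD 733) in laboratory and 6365 (SD 603) in wild mice (n = 3 each, exact permutation p = 0.2). In all, 29 sums, shares and ratios were compared, of which 21 did not overlap, and none could pass an adjusted threshold.

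**Figure D3:**
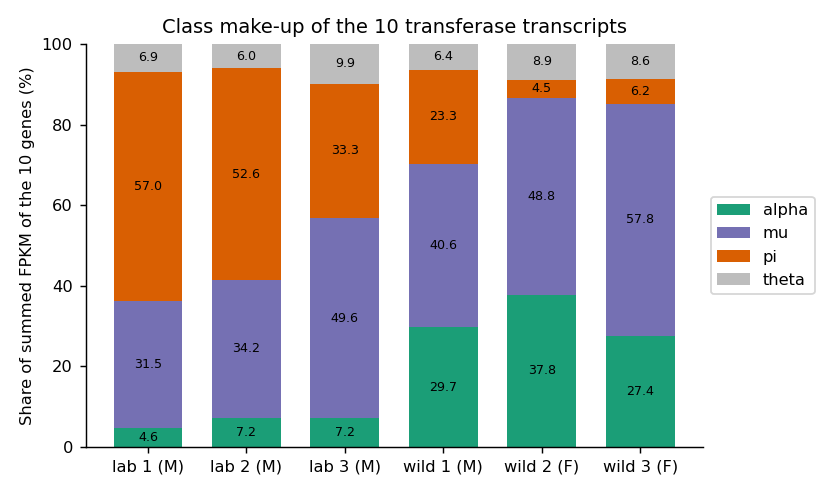
Stacked bars of the share (%) of each class in the summed FPKM of the 10 genes, with 1 bar per mouse. The alpha share is 4.63% to 7.19% in laboratory and 27.4% to 37.8% in wild mice, and the pi share is lowest in the wild females.

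The second comparison set the 2 wild females against the 1 wild male, with the laboratory males in the same fit. No member passed (0 of 10, limma), against 0.381% of all genes in either direction, 0.317% higher in females and 0.0644% lower. At an unadjusted p under 0.05 were 2 members, Gstp1 and Gstp2, and 2026 of the 18625 genes. In FPKM the wild male exceeded the mean of the wild females 4.97-fold for Gstp1 and 5.26-fold for Gstp2. The zFPKM differences (females minus male) were -0.75 for Gstp1 (SE 0.15, limma adjusted p = 0.0531) and -0.73 for Gstp2 (SE 0.15, adjusted p = 0.0621). Both passed when zFPKM above -3 was required in all 6 mice, and also with any 1 laboratory mouse left out. More of all tested genes passed in these settings too. Neither gene passed under any other alternative run, among them the fits without wild mouse 2 or wild mouse 3. For the other 8 members, adjusted p lay between 0.498 and 0.990. The male and wild mouse 2 came from the same place and wild mouse 3 from another, and with 1 male, sex and the individual cannot be told apart. Median zFPKM of all tested genes also shifted in this comparison, by 0.38, against 0.055 for the members.

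Gstp3, whose FPKM is given above, was lower in the wild females than in the male and was called, with a zFPKM difference of -1.05 (limma adjusted p = 0.0182). Xist, the transcript that silences an X chromosome in females, was at 7.18 and 40.6 FPKM in the wild females and at most at 0.0506 FPKM in the males, so the labelled sexes matched.

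The third comparison set the laboratory males against the wild male, the origin term of the same fit. This comparison is the one called sex as a covariate above, so the 2 are 1 result. It shares mice with both other comparisons, and its spread comes from the laboratory males and the wild females, since the lone wild male is assumed to vary as they do. In it 6 of 10 members were called, against 7.4% of all genes. Gsta3, Gstm2, Gstm3 and Gstt3 were lower in laboratory males (4 of 10, against 1.35% of all genes), and Gstp2 and Gstt1 were higher (2 of 10, against 6.05%). Gstt3 differed by -1.49 in zFPKM (SE 0.18, limma adjusted p = 9.37e-04) and Gsta3 by -0.67 (SE 0.12, adjusted p = 0.00628). For Gstp2 the difference was 0.63 (SE 0.14, limma adjusted p = 0.0191) and for Gstt1 it was 0.61 (SE 0.13, adjusted p = 0.0142). Gstp1 gave 0.41 (SE 0.14, limma adjusted p = 0.0955) and was not called. The laboratory males were 1.40-fold above the wild male for Gstp1 and 2.06-fold for Gstp2, against 2.997-fold and 4.47-fold above the mean of all wild mice. Neither Gstp2 nor Gstt1 was called on log2(FPKM + 0.1) (adjusted p = 0.147 and 0.057), and without wild mouse 2 or wild mouse 3 none of the 10 was called.

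**Figure D4:**
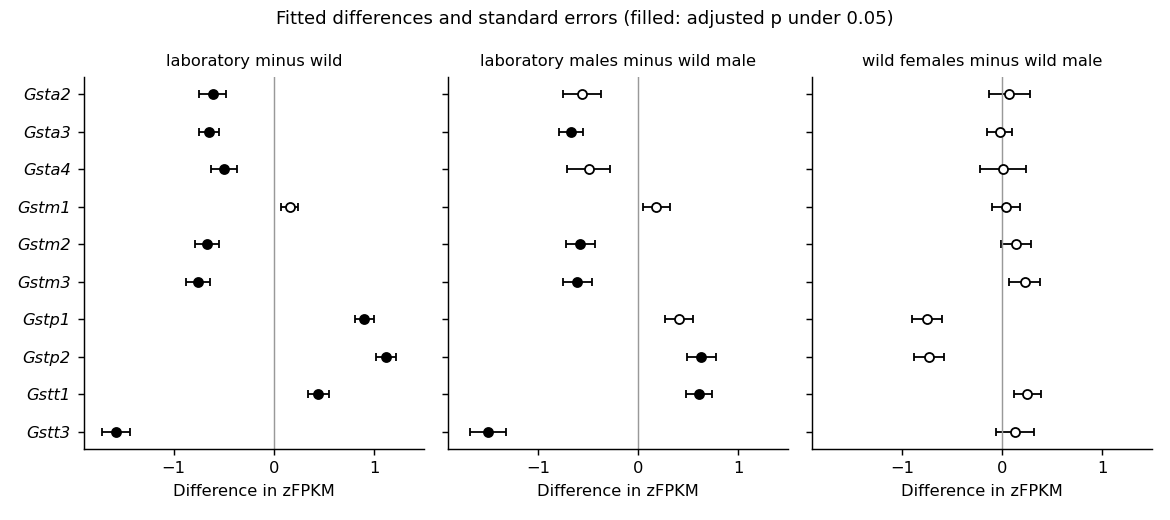
Fitted differences in zFPKM (points) with their standard errors (bars) for the 10 genes in 3 comparisons, filled where the limma adjusted p was under 0.05. In laboratory against wild mice 9 points are filled, from -1.58 for Gstt3 to 1.12 for Gstp2, in laboratory males against the wild male 6 are filled, and in wild females against the wild male none.

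Other members of the family were read from a list of 18 cytosolic and mitochondrial genes, of which 16 were in the tables and 15 passed the filter. Of these, 8 were lower in laboratory mice, against 7.29% of all genes, 0 were higher, against 7.18%, and 7 were not called (limma). In FPKM, 13 had every wild mouse above every laboratory mouse, where this held for 43.7% of all genes. The median zFPKM difference of the list was -0.46. Gsta1, an alpha class gene close to Gsta2 in sequence, had 4.05, 4.49 and 3.99 FPKM in laboratory males and 49.6, 47.2 and 44.9 FPKM in wild mice. Its difference was -0.97 in zFPKM (limma adjusted p = 7.86e-07), but 80.6% of its 100-base windows occur in other genes. Gm3776 and Gm10639, predicted relatives of Gsta1, were 13.0-fold and 13.3-fold higher in wild than in laboratory means. Of their 100-base windows, 85.5% and 31.9% occur in other genes, so reads could be split between them and Gsta1. Gstm4 and Gstm7, further mu class genes, were 6.21-fold and 4.09-fold higher in wild means, and Gstk1, the mitochondrial kappa class enzyme, 3.96-fold higher, all 3 called. Gstz1, which isomerises maleylacetoacetate in tyrosine breakdown, was 2.47-fold higher in wild means and was not called (limma adjusted p = 0.246). Gstm5, Gstm6, Gsto1 and Gstt2 were not called either.

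Microsomal transferases are unrelated membrane proteins with the same activity. In the list of these and their relatives, 1 of 6 genes was higher in laboratory mice and 0 were lower (limma). Among all genes the shares were 7.18% and 7.29%. Mgst1, the abundant liver form, had 2997, 3956 and 3175 FPKM in laboratory males and 3458, 2581 and 2792 FPKM in wild mice. Its zFPKM difference was 0.33 (limma adjusted p = 0.00153), although the groups overlapped in FPKM and the wild mean was 0.872 of the laboratory mean.

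**Figure D5:**
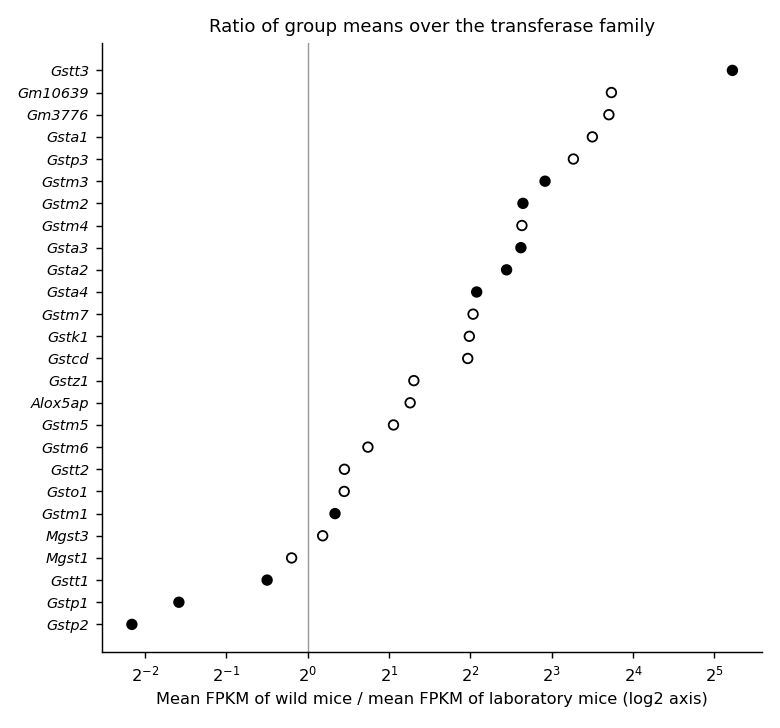
Ratio of the mean FPKM of wild mice to that of laboratory mice on a log2 axis for 26 family genes with a mean of at least 1 FPKM in either group (filled, the 10 genes described; open, other genes of the family and their microsomal relatives). The wild mean is higher for 22 genes, up to 37.3-fold for Gstt3, and the laboratory mean is higher for Gstp2, Gstp1, Gstt1 and Mgst1.

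Genes with profiles most like those of the extreme members were found by the root mean square difference of centred zFPKM over the 6 mice, among 6927 genes with a mean zFPKM above 0. For Gstp2 these were Gstp1 (0.109), Gm18635 (0.12), Fitm1 (0.141), Serpina3k (0.161) and C6 (0.164), where the median gene was at 0.69. Serpina3k, a secreted protease inhibitor, had 3760 FPKM in laboratory means, 1664 FPKM in the wild male and 610.0 FPKM in the mean of the wild females. C6, a component of the complement attack complex, had 50.3, 48.2 and 4.05 FPKM in the same groups. For Gstt3 the nearest were Abca3 (0.0818), Gm5869 (0.127), Aldh1b1 (0.133), Abhd1 (0.14) and Mmd2 (0.149), with the median gene at 0.771. Abca3, a lipid transporter, was at 1.17 FPKM in laboratory and 44.0 FPKM in wild means. Aldh1b1, a mitochondrial aldehyde dehydrogenase, was at 1.87 and 74.4 FPKM.

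Genes that supply or use glutathione were read from further lists. Beside each list, 7.18% of all tested genes were called higher and 7.29% lower in laboratory mice. Of 12 genes of glutathione synthesis and recycling, 0 were higher and 2 lower in laboratory mice. These were Cth and Cbs, the enzymes that make cysteine from homocysteine, at 66.9 and 53.7 FPKM in laboratory and 461 and 268 FPKM in wild means. The limma adjusted p values were 9.57e-09 for Cth and 1.09e-04 for Cbs. Of 19 genes of conjugate processing and export, 3 were higher and 5 lower. Abcc4, an export pump, was 37.6-fold higher in wild means (zFPKM difference -1.51, limma adjusted p = 5.87e-04), while Nat8f5, an acetyltransferase of the Nat8 family, was at 12.1 to 20.1 FPKM in laboratory mice and at 0 to 1.59 FPKM in wild mice.

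Among 12 tested glutathione peroxidases and reductases, 1 was higher and 3 were lower in laboratory mice, against 7.18% and 7.29% of all genes. The lower ones included Gpx1, the main cytosolic peroxidase, at 543 FPKM in laboratory and 2191 FPKM in wild means (limma adjusted p = 1.64e-05). Glo1, which clears methylglyoxal with glutathione, was called between wild females and the wild male (zFPKM difference 1.11, limma adjusted p = 0.00631), at 57.2 FPKM in the male and 333 and 447 FPKM in the females. Of 12 other NRF2 targets, 1 was higher and 2 were lower in laboratory mice. Nqo1, a quinone reductase and standard NRF2 target, was 9.98-fold higher in wild means (limma adjusted p = 2.36e-04). Of 16 regulators of these genes, 0 were higher and 1 was lower, which is near the share of all genes. The 1 called was Rxra, the shared partner of many nuclear receptors, at 16.2 and 79.5 FPKM. Nfe2l2, which encodes NRF2 itself, was at 20.9 FPKM in laboratory and 35.0 FPKM in wild means (limma adjusted p = 0.778).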

How the data were processed

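RNA-Seq of 6 livers was used, grouped by the labels. The authors aligned reads to a repeat-masked GRCm38.p6 genome with kalign, and calculated and deposited FPKM with the Tuxedo pipeline. Picard is also named in the submitters' processing notes. The R package zFPKM gave the second deposited column, a score of how far log2 FPKM lies from each mouse's own mode, in units of its own SD. No counts were used, so depth is unknown and the count test of the methods was not repeated.

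Gene names listed once in every mouse were used, with Gstp1 and Gstp2 taken from chromosome 19. Names with a marked failed estimate (24) were left out, but laboratory mouse 1 carried no such marks and could not be screened. Genes with zFPKM above -3 in at least 3 mice were tested, lower values set to -3, with limma 3.58.1 in R 4.3.3 (trend, Benjamini-Hochberg adjustment over 18625 genes, threshold 0.05). The comparisons within wild mice and among males are the sex and origin terms of 1 fit. Single values were compared by two-sided exact permutation tests in Python 3.11.15 (numpy 2.4.6, pandas 2.3.3, scipy 1.17.1), where 3 against 3 gives no p under 0.1. Scripts were tested on simulated data. Shared 100-base windows came from GENCODE M21 transcripts, and promoter sequences from RefSeq on GRCm38.p6. The motifs were chosen after the windows were read. Starts were made 1-based.

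Named were all 10 members, any other family genes described, taken from those with a mean of at least 1 FPKM in either group, up to 3 called genes of the largest difference per further list, and the 5 genes nearest to the members with the largest and smallest difference. Nfe2l2, Xist and the marker genes named fall outside this rule and were chosen after their values were seen. The members and lists were chosen with earlier results of these data known. Alternatives covered the floor, the filter, the scale, the normalization, the trend, failed estimates, shared copies, sex and each mouse left out.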

Additional observations from a re-analysis of the deposited data

How the results depend on the processing

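In laboratory against wild mice, 9 members were called, and between 6 and 9 under the other alternatives run, except that 1 was called without a variance trend and 0 without a filter on low values. Leaving out 1 mouse gave 8 to 9. Over all genes, 2695 were called. It was 8246 on log2(FPKM + 1), 8596 on log2(FPKM + 0.1), 8553 on a common mode and SD and 7280 after quantile normalization. It was 5277 with each median of zFPKM set to 0, 1198 with the lowest floor tried, 797 without a trend and 23 without a filter. With sex as a covariate, the fit is that of laboratory males against the wild male, given below. Gstm1 reversed on 4 scales, at -0.33 on log2(FPKM + 0.1), -0.33 on log2(FPKM + 1), -0.12 on a common mode and SD and -0.045 after quantile normalization. No other member difference reported reversed, and of 384 values under alternatives 301 kept their call and direction, 69 lost the call and 10 gained it; the cause was not tested.

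In wild females against the wild male, 0 members were called, 2 with zFPKM above -3 in all 6 mice, and 0 to 2 without 1 mouse. The 71 genes called overall became 394 with that filter, 441 with the lowest floor tried, 324 without a filter, 12 without a trend, 4947 without laboratory mouse 3, and 0 without wild mouse 2 or 3, where the lone female is assumed to vary like the laboratory mice. In laboratory males against the wild male, 6 members were called, 9 with zFPKM above -3 in all 6 mice, 0 without a filter, 0 without a trend and 0 to 8 without 1 mouse. The 1378 genes called overall became 5747 on log2(FPKM + 1), 6045 on log2(FPKM + 0.1) and 8081 without laboratory mouse 3. Neither comparison could be fitted without wild mouse 1, the only wild male.

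The alternatives on repeated gene names, and on log2(FPKM + 0.1) with each median set to 0 (8803 genes called in the first comparison), were chosen after seeing the data. No paired analysis was possible because the labels give no replicate numbers. Depth is unknown, so no limit could be set for low values.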
